A study of Rattus norvegicus with 12 samples.

Results

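The genes described here carry the symbols of proteins of the cytosolic ribosome of the rat, or of their named relatives. Members were taken by name alone: every row of the count table whose symbol is Rpl or Rps with a number (and, where present, a paralog letter and number), Rplp0 to Rplp2, or Rpsa. Every row of a repeated symbol was kept. The rule found 102 rows with 75 symbols among the 30560 genes of the table, 67 rows (46 symbols) for the large subunit and 35 rows (29 symbols) for the small subunit. Of the symbols, 59 stand on 1 row and 16 share 43 rows, led by Rpl38 and Rpl39 with 6 rows each and Rpl9, Rpl30 and Rps20 with 3 each. For a repeated symbol the row with the highest muscle level is called the leading row here (16 rows) and the others lesser rows (27 rows). Whether a lesser row is a second gene, a pseudogene or a retrocopy was not tested. Several further ribosomal proteins, among them Rpl7, Rpl10, Rpl13a, Rpl41, Rps7 and Rps26, are not analysed here because no row matched their symbol.

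RNA was taken from the red inner gastrocnemius (calf) of 6 wild-type male Wistar Kyoto rats aged 9 weeks. Each animal gave 1 library of whole muscle, which had no treatment, and 1 library of mitochondria. The mitochondria had been pulled from fresh tissue by immunoprecipitation and then digested with RNase A, which cleaves RNA, and proteinase K, which degrades protein. Both groups carried no genetic change, and all 12 libraries were depleted of ribosomal RNA. The input was 50 ng of muscle RNA or 10 ng of mitochondrial RNA. The whole-muscle libraries hold every cell type of the tissue, and the mitochondria libraries hold whatever RNA came through the isolation and the digestion.

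Cytosolic ribosomes translate the mRNAs of the nucleus, and their small subunit reads the message while the large subunit joins the amino acids. Mitochondria have ribosomes of their own, whose proteins are a separate set of nuclear genes (Mrpl and Mrps). The mRNAs of cytosolic ribosomal proteins are short, abundant, and controlled together: most begin with a C followed by a run of pyrimidines, the 5′ terminal oligopyrimidine tract, through which the mTORC1 kinase and the protein LARP1 set their translation. Mammalian genomes also hold many processed copies of these genes, most of them silent.

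Near their start sites the members held a motif of the tract more often than all genes, and the name rule did not use sequence. RefSeq promoter windows of the assembly GRCr8 were matched by symbol for 58 of the 75 symbols, and the stretch from 20 bases before to 30 bases from the start was searched on each strand for CTTTC, the core of such a tract. The motif stood on the transcribed strand in 30 of 58 members (51.7%), against 7.08% of 27457 genes of the table. On the other strand (GAAAG) it stood in 0 of 58 members and in 7.17% of all genes. The related CTTTT stood in 10 of 58 members (17.2%, 6.43% of all genes) and its reverse complement AAAAG in 2 (3.45%, 6.17% of all genes). The first 4 windows below hold the motif and the last 3 belong to members whose counts set them apart below, with CTTTC in capitals and every window written 5′ to 3′.
Rplp1: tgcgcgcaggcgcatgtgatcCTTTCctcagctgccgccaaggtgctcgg
Rpl19: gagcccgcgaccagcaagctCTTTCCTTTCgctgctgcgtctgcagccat
Rpl28: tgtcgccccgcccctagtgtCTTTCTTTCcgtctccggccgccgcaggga
Rps27: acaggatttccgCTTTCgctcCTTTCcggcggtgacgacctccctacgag
Rpl3: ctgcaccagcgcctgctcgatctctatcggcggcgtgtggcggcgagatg
Rpl3l: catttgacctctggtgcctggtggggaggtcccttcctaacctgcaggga
Rpl7l1: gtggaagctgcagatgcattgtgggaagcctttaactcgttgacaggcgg
In GRCr8 they lie at chr8:71290843-71290892 on the minus strand (Rplp1), chr10:83519044-83519093 on the plus strand (Rpl19), chr1:78083503-78083552 on the minus strand (Rpl28) and chr2:177964577-177964626 on the minus strand (Rps27). The others lie at chr7:113507961-113508010 on the minus strand (Rpl3), chr10:14258426-14258475 on the plus strand (Rpl3l) and chr9:21695698-21695747 on the plus strand (Rpl7l1). Rpl19 and Rpl28 hold overlapping or joined repeats of the motif, and Rps27 holds it at separate places. The Rpl3, Rpl3l and Rpl7l1 windows do not hold these letters, which says nothing about a tract elsewhere.

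The libraries differed widely in depth, with 24309444 to 32055355 counts in muscle and 720111 to 1785865 in mitochondria. The members took 139004 to 202859 in muscle and 1026 to 2191 in mitochondria. Levels are therefore given as nuclear CPM, counts after scaling each library's sum over genes outside the mitochondrial genome to 1000000, as mean ± SD over 6 libraries. They are not divided by transcript length, which the table does not give, so a level compares 1 row between groups and not 1 row with another. Markers of muscle fibres (7 rows, such as Acta1 and Myh4) summed to 136986–166374 nuclear CPM in muscle and 718–1202 in mitochondria. Leukocyte markers (5 rows) summed to 45.0–82.3 and 333–408, with 5 of 5 higher with total counts. Under that scaling, used for all marker calls here, 84.3% of all tested genes were higher and 9.03% lower. With TMM 2 of the 5 leukocyte rows were higher and 1 lower. Adipocyte markers (2) summed to 0.0960–4.65 and 50.8–71.5, with 2 of 2 higher, and Schwann cell markers (3) to 22.8–142 and 113–143, with 2 higher and 1 lower. Fibroblast markers (5) summed to 3222–11952 and 482–708, with 4 lower and Pdgfra higher (38.6 and 102 nuclear CPM). Endothelial markers (5) summed to 483–891 and 517–563, with Cdh5 and Pecam1 lower and Vwf higher, and smooth muscle markers (4) to 425–652 and 239–301, with 3 lower. No row of these lists was without counts in either group. Their part in the results below was not tested, and in bulk RNA fewer cells of a type and less RNA per cell cannot be told apart.

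As a family, the ribosomal protein mRNAs made up a smaller part of the nuclear RNA in the mitochondria libraries. In muscle they took 0.718%, 0.872%, 0.875%, 0.917%, 0.924% and 0.952% of nuclear counts, and in mitochondria between 0.179% and 0.208%. Every mitochondria library lay below every muscle library. The means were 0.876% ± 0.0835 and 0.193% ± 0.00954, with a two-sided exact permutation p of 0.0021645 (the smallest that 924 groupings can give), 0.003247 after adjustment over 9 such family values, and the share was lower in mitochondria in 6 of 6 animals. The low muscle value, 0.718%, belongs to muscle replicate 5. With each library left out in turn the difference of the means lay between -0.714 and -0.668 percentage points.

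The proteins of the mitochondrial ribosome give a comparison inside the same libraries. In muscle there were 3.37 to 3.95 counts on cytosolic ribosomal protein rows for each count on the 73 rows of mitochondrial ribosomal proteins, and in mitochondria 0.979 to 1.09. The mean ratios were 3.64 ± 0.193 and 1.04 ± 0.0421, without overlap between the groups. On the log2 scale the ratio fell by 1.81 in mitochondria (two-sided exact permutation p = 0.0021645, adjusted p = 0.003247, lower in 6 of 6 animals). Because this is a ratio of counts of the same library, it does not depend on how libraries are scaled.

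**Figure D1:**
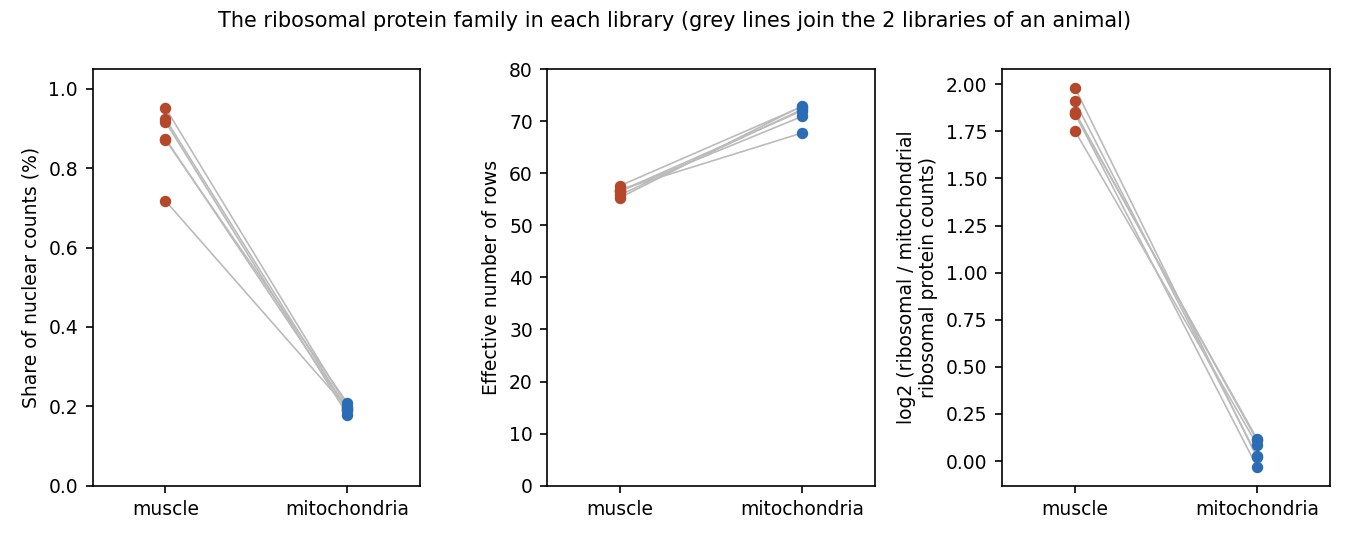
The share of nuclear counts on ribosomal protein rows (percent), the effective number of rows over which their counts spread, and the log2 ratio of their counts to those of mitochondrial ribosomal proteins, for 6 muscle (red) and 6 mitochondria (blue) libraries, with lines joining libraries of 1 animal. The groups do not overlap in any panel: the share lies at 0.718% to 0.952% in muscle and 0.179% to 0.208% in mitochondria, and the effective number at 55.3 to 57.6 and 67.7 to 72.9.

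Row by row, the test across all genes (the quasi-likelihood test of edgeR after TMM scaling, adjusted p under 0.05) took 81 of the 102 rows past its filter on low counts. Of these, 75 were lower and 6 higher in mitochondria, where 30.3% of 24679 tested genes were lower and 63.0% higher. A gene with few muscle counts could pass the filter only through its mitochondria side, and the shares over all genes include such genes. Of the tested nuclear genes, 7841 had at least 10 nuclear CPM in muscle, and their shares are given below. The median log2 fold change, mitochondria over muscle, was -3.98 for the 81 rows and 2.51 for all tested genes. TMM moves every log2 fold change by about the same amount against plain total counts, under which the median of all genes is 4.61 and that of the members -1.91. With total counts 68 members were lower and 7 higher, where 9.03% of all genes were lower and 84.3% higher. Counts on mitochondrial genome genes as the yardstick gave 56 lower and 6 higher, where 4.33% of all genes were lower and 80.8% higher. In 65 rows every mitochondria library lay below every muscle library, which held for 7.35% of the 24654 tested nuclear genes.

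Most rows with an appreciable muscle level moved the same way. Above a mean of 10 nuclear CPM in muscle, a limit set after the levels were seen, lie 69 rows: 40 of the large and 29 of the small subunit. Rpl31l4 (13.1) and the lesser Rpl30 row ENSRNOG00000032825 (12.8) are just inside and Rpl22l1 (7.37) just outside. All 69 passed the test as lower with TMM (median log2 fold change -4.24), as did 87.1% of the 7841 tested nuclear genes of that muscle level. With total counts 66 of the 69 did (median -2.16), against 27.9% of those genes. The 3 that did not were the leading Rpl22 row (log2 fold change -0.26, adjusted p = 0.141), Rpl7l1 (0.02, adjusted p = 0.927) and Rps10 (-0.19, adjusted p = 0.388), all from edgeR with total counts. In 63 of the 69 every mitochondria library lay below every muscle library, against 22.9% of those genes, the exceptions being Rpl3, Rpl7l1, Rps10, Rps28 and the leading rows of Rpl22 and Rpl30.

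**Figure D2:**
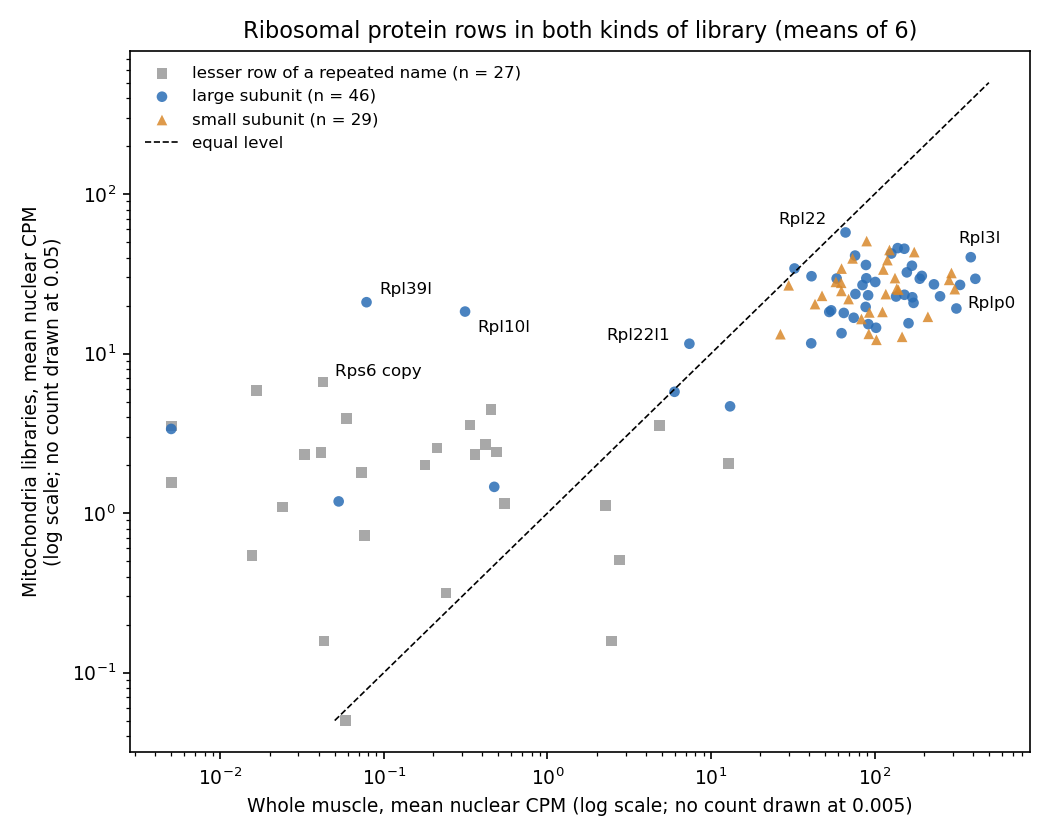
Mean nuclear CPM of each of the 102 rows in 6 mitochondria libraries (y axis, log scale) against 6 muscle libraries (x axis, log scale), with rows without counts drawn at the lowest position. Of the 69 rows of at least 10 nuclear CPM in muscle, all but Rpl7l1 (32.4 and 34.2) lie below the line of equal level, and most lesser rows of repeated symbols lie at the left with a few nuclear CPM in mitochondria.

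The ribosomal stalk, the flexible arm that recruits elongation factors, was represented by Rplp0 and its partners Rplp1 and Rplp2. Rplp0, the base of the stalk, took the most counts of all members in muscle, at 368 (lowest), 417 (median) and 443 (highest) nuclear CPM, and 17.4, 27.96 and 42.7 in mitochondria. The groups were far apart, with means of 413 ± 27.4 and 29.4 ± 8.66, a 14.04-fold difference. The fitted log2 fold change was -5.94 ± 0.15 (SE) with TMM and -3.88 with total counts. Rplp1 went from 170 ± 26.6 to 22.6 ± 2.67 nuclear CPM (log2 fold change -5.06 with TMM) and Rplp2 from 102 ± 10.8 to 14.5 ± 4.29 (-4.97). All 3 stalk rows fell, and none overlapped between groups.

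Among other large subunit proteins the fall was deepest for Rpl4, a core protein that reaches into the peptide exit tunnel. Its muscle libraries lay at 278 (lowest), 304 (median) and 388 (highest) nuclear CPM and its mitochondria libraries at 8.71, 21.2 and 29.99. The means of 316 ± 42.6 and 19.2 ± 8.14 are 16.5-fold apart, and the log2 fold change was -6.16 ± 0.18 (SE) with TMM and -4.07 with total counts. Only 5 to 26 counts per mitochondria library stand behind the lower value. Rpl5, which carries the 5S ribosomal RNA into the subunit, fell from 333 ± 42.5 to 27.0 ± 6.36 nuclear CPM (log2 fold change -5.74 with TMM). Rpl19, which bridges the subunits, fell from 251 ± 33.2 to 22.9 ± 6.81 (-5.60).

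Small subunit proteins with many counts in muscle fell by like amounts. Rps6, the subunit's main target of S6 kinase, lay in its leading row at 226 (lowest), 296 (median) and 322 (highest) nuclear CPM in muscle and at 19.97, 29.9 and 36.9 in mitochondria, without overlap (log2 fold change -5.45 ± 0.14 SE with TMM, -3.35 with total counts). Rpsa, a small subunit protein also described as a laminin receptor, went from 295 ± 28.03 to 32.0 ± 9.27 nuclear CPM (-5.33 with TMM). Rps16 went from 309 ± 43.1 to 25.4 ± 5.44 (-5.77) and Rps15 from 212 ± 55.1 to 17.01 ± 5.32 (-5.81), both close to where messenger and transfer RNA meet. Rps27a, made as a fusion with ubiquitin, went from 92.9 ± 14.2 to 18.1 ± 6.21 (-4.46). All of these passed edgeR's test at adjusted p values of at most 1.05e-21.

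**Figure D3:**
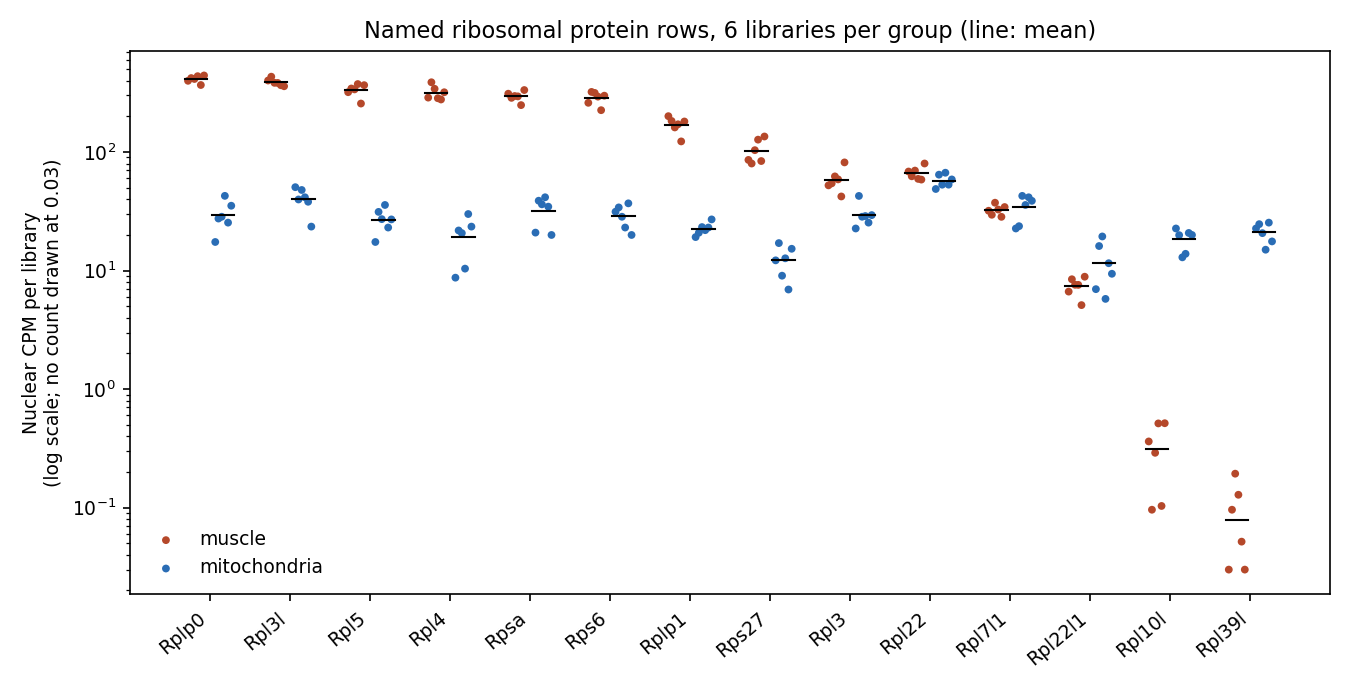
Nuclear CPM of 14 named rows in each of 6 muscle (red) and 6 mitochondria (blue) libraries, on a log scale, with a line at the mean and libraries without a count drawn at the lowest position. Rplp0 to Rps27 are separated by group, Rpl22, Rpl7l1 and Rpl22l1 overlap, and Rpl10l and Rpl39l are the reverse of the rest.

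The band of levels was narrower in mitochondria than in muscle. Over the 69 rows the muscle means ran from 12.8 to 413 nuclear CPM (median 101) and the mitochondria means from 2.04 to 57.5 (median 25.4). The SD of the log2 level over rows was 1.03 in muscle and 0.75 in mitochondria. Across these 69 rows, which share libraries and depth and are not independent replicates, Spearman's rho between the 2 levels was 0.243 and Pearson's r of the log2 levels 0.458. With 9 to 291 counts a row over the 6 mitochondria libraries (median 126), counting error widens the mitochondria side.

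The same flattening appears in the library values. The 5 rows with the most muscle counts held 20.2% ± 1.09 of the members' counts in muscle and 7.30% ± 0.844 in mitochondria. Those rows were picked on the muscle side of the comparison, so their smaller part in mitochondria is no support by itself. The effective number of rows, the exponential of the Shannon entropy of the members' shares, is the number of equally loaded rows that would give the same spread. It was 55.3 to 57.6 in muscle and 67.7 to 72.9 in mitochondria, with means of 56.5 ± 0.803 and 71.4 ± 1.95 (two-sided exact permutation p = 0.0021645, adjusted p = 0.003247, higher in mitochondria in 6 of 6 animals). After thinning every library to 573903 nuclear counts it was 56.3 ± 1.01 and 69.9 ± 1.42. The counts of large over small subunit rows were 1.56 ± 0.0537 in muscle and 1.47 ± 0.0399 in mitochondria (exact permutation p = 0.0130, adjusted p = 0.0167), a call that the paired sign-flip test over animals does not keep (p = 0.0625, lower in 5 of 6 animals).

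Other nuclear genes of like muscle level were higher in mitochondria than the members. Among genes at 100 nuclear CPM or more in muscle, the median mitochondria level was 27.2 nuclear CPM for 35 members and 57.5 for 1123 other genes. Between 50 and 100 it was 23.6 for 25 members and 54.8 for 1355 others, and between 10 and 50 it was 20.4 for 9 members and 45.6 for 5294 others. The other genes of these bands had muscle medians of 179, 67.2 and 22.0 nuclear CPM. Their mitochondria levels were thus flatter too, and the flattening is not particular to the members. Between 1 and 10 the median mitochondria level was 2.32 for 6 members and 35.1 for 4727 others. Below 1 nuclear CPM it was 2.34 for 27 members and 9.27 for 17922 others. The members were thus the lower set in every band given, as a description with no test, since the bands rest on the muscle side of the comparison. Levels are not divided by transcript length, and whether length bears on this difference was not tested.

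Scaling each library to the members' own sum shows which rows departed from the family. On that scale 23 rows were lower and 38 higher, where 1.73% of all genes were lower and 96.9% higher. The lowest among the 69 rows were Rpl4 (log2 fold change -1.84), Rplp0 (-1.62), Rps15 (-1.49), Rps16 (-1.44), Rpl5 (-1.43) and the leading Rps4x row (-1.32). The highest were Rpl7l1 (2.25), Rps10 (2.05) and the leading rows of Rpl22 (1.97) and Rpl30 (1.73), followed by Rps18 (1.35) and Rps19 (1.29). Both ends held rows of each subunit. The order follows the muscle level in part, because mitochondria levels varied less over the 69 rows than muscle levels. Rpl4, Rplp0, Rps16 and Rpl5 were among the rows highest in muscle. Rpl7l1, Rps10 and the leading rows of Rpl22 and Rpl30 lay below the muscle median of the 69. Whether a row departed beyond what its muscle level gives was not tested. Rps27a (-0.14, edgeR adjusted p = 0.416) and the leading Rps20 row (-0.16, adjusted p = 0.324) lay near the family as a whole and did not pass the test.

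**Figure D4:**
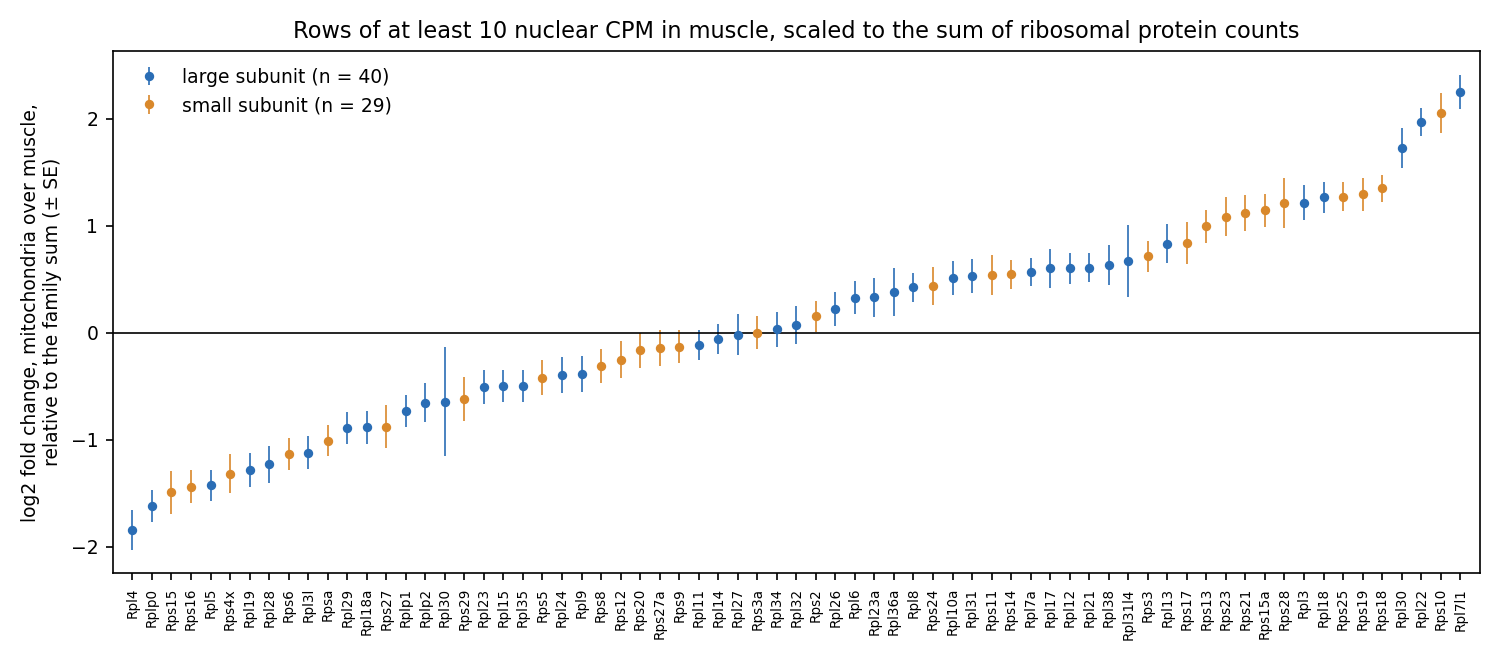
Log2 fold change (± SE, edgeR) of the 69 rows of at least 10 nuclear CPM in muscle, mitochondria over muscle, with the sum of ribosomal protein counts as library size, ordered by value. Large (blue) and small (orange) subunit rows mix along the whole range, from Rpl4 at -1.84 to Rpl7l1 at 2.25.

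Among the 69 rows, Rpl7l1, Rps10 and the leading rows of Rpl22 and Rpl30 stood highest on the family's own scale. All of these overlapped between the groups in nuclear CPM. Rpl22, a large subunit protein that also binds other RNAs, had a leading row at 58.6 (lowest), 65.5 (median) and 80.1 (highest) nuclear CPM in muscle and 48.8, 55.9 and 66.9 in mitochondria, so that the groups overlapped. Its log2 fold change was -2.35 ± 0.12 (SE) with TMM and -0.26 with total counts, and its mitochondria libraries held 28 to 68 counts. Rpl7l1, taken by its symbol as a relative of Rpl7, lay at 28.4, 32.4 and 37.4 nuclear CPM in muscle and 22.7, 37.3 and 42.7 in mitochondria. Whether its protein is part of the mature ribosome was not tested. The Rpl7l1 groups overlapped too, with log2 fold changes of -2.07 with TMM and 0.02 with total counts. Rps10, a protein of the head of the small subunit, went from 29.8 ± 6.43 to 26.8 ± 9.93 nuclear CPM, and overlapped. The leading Rpl30 row went from 41.2 ± 7.58 to 30.6 ± 10.5, and it passed edgeR's test as lower with total counts too (log2 fold change -0.52, adjusted p = 0.0129).

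Paralog pairs divided differently in the 2 kinds of library. Rpl3l replaces Rpl3, a protein near the peptidyl transferase centre, in the ribosomes of striated muscle. In muscle Rpl3l lay at 359 (lowest), 383 (median) and 432 (highest) nuclear CPM and Rpl3 at 42.2, 56.6 and 81.8. In mitochondria Rpl3l lay at 23.5, 40.7 and 50.5 and Rpl3 at 22.7, 28.6 and 42.6. Rpl3l therefore did not overlap between the groups (log2 fold change -5.44 with TMM, -3.32 with total counts), whereas Rpl3 did (-3.10 and -1.01). The count ratio of Rpl3l to Rpl3 was 4.39 to 8.68 in muscle and 0.800 to 2.23 in mitochondria. The ratio's geometric mean was 5.02-fold lower in mitochondria (two-sided exact permutation p = 0.0021645, adjusted p = 0.003247, lower in 6 of 6 animals). The summed fibre markers given above fell too, and whether that bears on Rpl3l was not tested.

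In the other pairs the ratio moved towards the paralog. Rps27l, a close relative of Rps27 whose symbol lies outside the name rule, had 0.138 ± 0.0344 counts for each Rps27 count in muscle and 1.75 ± 0.580 in mitochondria. Rps27 itself fell from 103 ± 23.7 to 12.2 ± 3.77 nuclear CPM, while Rps27l stood at 13.5 ± 1.01 and 19.7 ± 2.90 (log2 fold change -1.59 with TMM and 0.49 with total counts, so its direction depends on the scaling). The log2 ratio of Rps27l to Rps27 rose by 3.61 in mitochondria (exact permutation p = 0.0021645, adjusted p = 0.003247, higher in 6 of 6 animals). Rpl22l1 stood at 7.37 ± 1.35 and 11.5 ± 5.32 nuclear CPM (-1.47 with TMM and 0.64 with total counts). Its log2 ratio to the leading Rpl22 row was higher by 0.82 in mitochondria (exact permutation p = 0.0195, adjusted p = 0.0219), in 5 of 6 animals, a call that the paired sign-flip test (p = 0.0625) and thinning to equal depth (exact permutation p = 0.169) do not keep.

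Rpl39l and Rpl10l, paralogs of Rpl39 and Rpl10 known from male germ cells, had almost no counts in muscle and some in every mitochondria library. Rpl39l had 0 to 4 counts in the muscle libraries, 9 in all, and 13 to 26 in the mitochondria libraries, 105 in all. In nuclear CPM this is at most 0.193 in muscle against 15.0 (lowest), 21.7 (median) and 25.4 (highest) in mitochondria. The pooled ratio was 271, with an exact 95% interval of 138 to 610 for counting error only. Rpl10l had 35 counts in all in muscle (0.0960 to 0.515 nuclear CPM) and 91 in mitochondria (12.9 to 22.7), a pooled ratio of 60.5 with an interval of 40.6 to 92.1. The fitted log2 fold changes were 5.74 and 3.71 with TMM. For 17922 other nuclear genes below 1 nuclear CPM in muscle, the quartiles of the mitochondria level were 3.04 and 23.3 nuclear CPM. The mean mitochondria levels of Rpl39l and Rpl10l lay inside that range, so such levels are not particular to them. Both rows passed the filter on low counts only through their mitochondria side, so their edgeR calls are no support. The log2 ratio of Rpl39l to the leading Rpl39 row, with 0.5 added to each count, rose from -6.26 ± 1.38 to 1.90 ± 1.03 (exact permutation p = 0.0021645, adjusted p = 0.003247, higher in 6 of 6 animals). The leading Rpl39 row itself stood at 5.98 ± 1.07 and 5.76 ± 3.36 nuclear CPM. The ratio rests on the same few muscle counts of Rpl39l, so its p-value is no further support. Without the added 0.5 it ran from 1.6 to 11 over the mitochondria libraries. Rpl39 stands on 6 rows that may have lost or exchanged reads, so the ratio is uncertain.

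**Figure D5:**
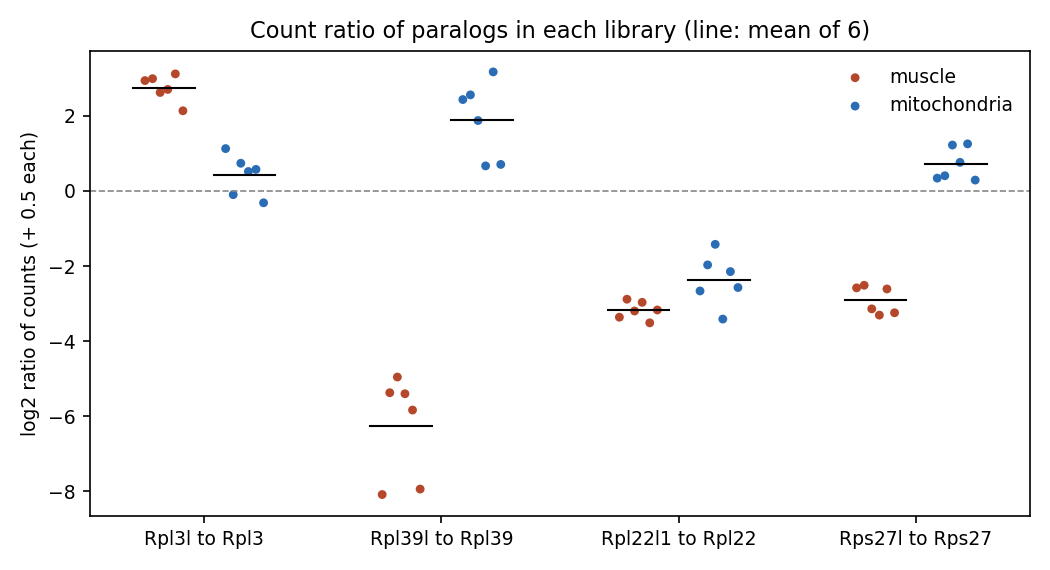
Log2 count ratio of 4 paralog pairs in each of 6 muscle (red) and 6 mitochondria (blue) libraries, with 0.5 added to each count and a line at the mean. Rpl3l to Rpl3 drops from 2.75 to 0.42, Rpl39l to Rpl39 and Rps27l to Rps27 rise past equality without overlap, and Rpl22l1 to Rpl22 overlaps between the groups.

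The lesser rows of repeated symbols were close to silent in muscle and spread thinly over the mitochondria libraries. The 27 lesser rows had muscle means of 0 to 12.8 nuclear CPM (median 0.179) and mitochondria means of 0 to 6.64 (median 2.04). Their part of all member counts was 0.328% ± 0.0212 in muscle and 3.05% ± 0.513 in mitochondria. Only 9 of the 27 passed the filter on low counts, with 4 higher and 5 lower under TMM. Those higher could pass only through their mitochondria side, so that their number is no support. The sources used here do not say how reads matching several places were counted. Near-identical copies may have lost or exchanged reads, so each value of a lesser row is uncertain.

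The 4 lesser rows that passed the filter and were higher were those of Rpl22, Rps6, Rpl38 and Rpl9. Without the filter 17 member rows were higher, including further lesser rows of Rpl38 and Rpl30. The Rpl22 row (ENSRNOG00000011104) had 2 counts over the muscle libraries and 30 over the mitochondria libraries, a pooled ratio of 349 with an exact 95% interval of 88.6 to 3014. The Rps6 row (ENSRNOG00000049025) had 5 and 35 counts (0.0423 and 6.64 nuclear CPM), while the leading Rps6 row fell. Rpl38 (ENSRNOG00000049047) had 7 and 20 counts and Rpl9 (ENSRNOG00000030476) 52 and 22. No lesser row reached the mitochondria level of its well-expressed leading row: the leading rows of Rpl22, Rps6, Rpl38 and Rpl9 stood at 57.5, 28.98, 18.7 and 22.8 nuclear CPM there.

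Rpl38 and Rpl39 have the most rows. The leading Rpl38 row, for a small large-subunit protein linked to selective translation in the embryo, went from 54.3 ± 4.90 to 18.7 ± 7.41 nuclear CPM (log2 fold change -3.68 with TMM, -1.60 with total counts). Its 5 lesser rows had means of 0 to 0.0729 nuclear CPM in muscle and 0.158 to 3.91 in mitochondria. One of them (ENSRNOG00000029377) had no count in muscle and 17 in mitochondria, at least 132-fold higher against a floor of 3 counts over the muscle group. Rpl39, a small protein lining the exit tunnel, differed from this. Its leading row overlapped between the groups (log2 fold change -2.18 with TMM, -0.13 with total counts). Its 5 lesser rows, which all overlapped between the groups and were not tested, lay at 0.0411 to 0.360 in muscle and 0 to 3.57 in mitochondria, and 1 of them (ENSRNOG00000050393) had no mitochondria count. The leading rows of Rpl9 (135 ± 27.0 to 22.8 ± 4.90 nuclear CPM) and Rps20 (83.1 ± 12.5 to 16.5 ± 2.84) fell without overlap.

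In all, 21 rows did not pass the filter: 18 lesser rows, the leading rows of Rpl37 and Rpl35a, and Rpl30l1. The leading Rpl37 and Rpl35a rows had only 0.473 and 0.0529 nuclear CPM in muscle, so the counts of these symbols do not show a well-expressed gene. The rows without any muscle count were Rpl30l1, 1 lesser Rpl38 row and 1 lesser Rpl30 row (ENSRNOG00000005975), whose 8 mitochondria counts are at least 62.0-fold above the same floor. The number of rows with a count was 93.3 ± 2.58 per muscle library and 92.7 ± 4.27 per mitochondria library (exact permutation p = 0.825). At the equal depth of 573903 nuclear counts it was 77.2 ± 0.983 and 89.8 ± 2.64 (exact permutation p = 0.0021645).

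Whether the starting tract bears on the members' change was not tested, and CTTTC in a window of 50 bases is not a measure of the tract itself. Among well-expressed rows with a matched window, the median log2 fold change with TMM was -3.94 for 27 rows with CTTTC and -4.30 for 26 without, as a description with no test. The 3 translation genes with the most muscle counts fell as well. Tpt1, whose mRNA also begins with such a tract, went from 902 ± 113 to 27.4 ± 7.34 nuclear CPM (log2 fold change -7.17 with TMM, -5.10 with total counts). Eef2, the translocation factor, went from 1038 ± 59.9 to 63.5 ± 6.43 (-6.19 and -4.08). Eef1a2, the muscle form of the factor that delivers transfer RNA, went from 1236 ± 86.2 to 123 ± 8.43 (-5.50 and -3.38).

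The other genes of the translation machinery fell into sets that moved to different extents. All 28 tested translation factors were lower with TMM (median log2 fold change -3.79) and 21 of 28 with total counts (median -1.71), beside 30.3% and 9.03% of all tested genes. None of these factors lay below 10 nuclear CPM in muscle. Of the tested nuclear genes at or above that level, 87.1% were lower with TMM and 27.9% with total counts. The ribosomal proteins outside the name rule, Rack1, Fau and Rps27l, were lower in 3 of 3 with TMM (median -4.50) and in 2 of 3 with total counts, with Rack1 at 184 ± 23.9 and 28.5 ± 4.14 nuclear CPM. Of 72 tested mitochondrial ribosomal protein genes, 69 were lower and 2 higher with TMM (median -2.25), and 26 lower and 16 higher with total counts (median -0.16), against 9.03% lower and 84.3% higher over all genes. Their rows with the most muscle counts were Mrpl12 (125 ± 7.30 to 28.7 ± 3.94 nuclear CPM), Mrpl54 (122 ± 17.999 to 12.2 ± 3.53) and Mrps15 (90.2 ± 12.9 to 44.3 ± 10.6).

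For the genes that build or control ribosomes, the median of each set changed sign with the scaling. Most tested genes of the whole table were higher under both scalings. Of 25 tested ribosome assembly genes, 20 were lower with TMM (median log2 fold change -0.96), but 3 lower and 18 higher with total counts (median 1.11). Over all tested genes, 30.3% were lower and 63.0% higher with TMM, and 9.03% were lower and 84.3% higher with total counts. Of the assembly genes, 2 lay below 10 nuclear CPM in muscle. Among tested nuclear genes at or above that level, 87.1% were lower with TMM and 27.9% with total counts. Nucleolin (Ncl) stood at 143 ± 11.2 nuclear CPM in muscle and 58.2 ± 6.88 in mitochondria, Ubtf, a factor of RNA polymerase I, at 79.2 ± 8.83 and 79.3 ± 13.7, and nucleophosmin (Npm1) at 67.3 ± 6.17 and 43.8 ± 10.8. Of 11 genes of mTORC1 and S6 kinase control, 11 were lower with TMM (median -1.33), beside 30.3% of all genes. With total counts 8 were higher and 2 lower (median 0.78), beside 84.3% and 9.03% of all genes. None of the 11 lay below 10 nuclear CPM in muscle. At or above that level, 87.1% of tested nuclear genes were lower with TMM and 27.9% with total counts. Larp1, the tract-binding repressor, stood at 121 ± 8.94 and 68.0 ± 9.66 nuclear CPM, the kinase gene Mtor at 108 ± 7.94 and 196 ± 17.05, and its inhibitor Tsc2 at 61.4 ± 6.14 and 159 ± 11.04. These named assembly and control genes all had negative log2 fold changes with TMM. With total counts those of Ncl (-1.36), Npm1 (-0.69), Larp1 (-0.87) and Ubtf (-0.03) stayed negative, and those of Mtor (0.84) and Tsc2 (1.36) were positive. Under both scalings the medians of these assembly and control sets lay above that of the ribosomal proteins.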

How the data were processed

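The authors deposited raw read counts per gene (unit: counts) in 1 table with a column for each of 12 libraries, Ensembl gene identifiers and symbols. Per the submitters' processing notes, the tools were HTSeq, STAR 2.7.11a, cutadapt 4.6 and FastQC 0.74, with the build mRatBN7.2. The annotation, the strand setting and the counting of multiply matching reads are not stated in these sources. Groups came from the titles. Animal numbers in the labels pair muscle and mitochondria. The deviations of the 2 libraries of an animal from their group means correlated at -0.0075 to 0.0201 over all tested genes. The reported tests have no animal term, and the blocked fit is an alternative.

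Tests used edgeR 4.0.16 (glmQLFit, glmQLFTest) in R 4.3.3 on the whole table, with TMM, group alone in the model and filterByExpr (minimum count 10), and p-values were adjusted over all tested genes (Benjamini-Hochberg, 0.05). The code was tested on simulated data. A standard error is the absolute log2 fold change over the square root of F. Library values were compared by two-sided exact permutation over 924 groupings, with adjustment over 9 values, and by sign flips over 64 patterns, whose smallest p is 0.03125 (SciPy 1.17.1). Mitochondrial genome genes (37) carry the prefix Mt- or AY172581. Libraries hold 720111 to 32055355 counts, and intervals and floors cover counting error only. Alternatives were RLE size factors, total, nuclear, mitochondrial genome and member counts as library size, DESeq2 1.42.0, no filter, a fold of at least 2, thinning to 573903 nuclear counts, and each library left out.

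Members, lists, tests and the ratios between paralogs and to mitochondrial ribosomal proteins were chosen with earlier results of these data known. The named rows are the 8 with the highest mean CPM in muscle, the 5 largest rises and 5 largest falls among called rows without overlap whose higher group averaged 1 CPM or more, Rplp0, Rplp1, Rplp2, Rpsa, Rps6, Rps27a, paralog pairs, rows of the 3 symbols with the most rows, and the 3 most abundant members of each related list. Rows that stood out on the family's scale, rows without counts and Rpl28 were added after values were seen. A planned split of rows by identifier against RefSeq could not be made, because that table gave no Ensembl identifiers, and it was replaced by a description of leading and lesser rows. Promoter windows are RefSeq's on GRCr8, a later assembly than that of the counts.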

Additional observations from a re-analysis of the deposited data

Results flagged for a closer look

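Single libraries stood apart from the other 5 of their group, by Dixon's criterion, in 4 of 72 groups of 6 values checked, and chance alone gives about 1 in 20. The share of nuclear counts on ribosomal protein rows was 0.718% in muscle replicate 5, against 0.872% to 0.952% in the other muscle libraries. Rps27a stood at 66.6 nuclear CPM in the same muscle library. Rpl3 stood at 42.6 nuclear CPM in mitochondria replicate 2, from 45 counts. The Rpl38 row ENSRNOG00000049047 stood at 0.192 nuclear CPM in muscle replicate 2, from 4 counts.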

How the results depend on the processing

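RLE size factors, DESeq2, the animal as a replicate block and a fold of at least 2 gave 75 rows lower and 6 higher, as did TMM, and the block changed no call of a named row. Over 24679 tested genes, RLE gave 6564 lower and 16415 higher, the block 7427 and 15511, and a fold of at least 2 5653 and 14359. DESeq2 gave 6511 lower and 16381 higher of 24668. Member counts as library size gave 23 lower and 38 higher, where 427 of 24679 genes were lower and 23906 higher. No filter gave 17 of 102 rows higher, where 19910 of 29900 genes were higher. Thinning gave 0 higher (67 of 67 rows lower), where 8757 of 14965 genes were higher and 4151 lower. Leaving out 1 library in turn gave 2 to 10 higher and 69 to 75 lower. Any missing muscle library gave 2 higher, and missing mitochondria replicate 1 gave 10. Of 20003 to 20007 genes tested, a missing muscle library gave 11478 to 11556 higher and 6925 to 6988 lower. Of 25287 to 25696, a missing mitochondria library gave 15959 to 16363 higher and 7462 to 7514 lower. With fewer rows tested there were fewer calls. With member counts as library size the log2 fold changes of Rpl3 (1.22) and the leading rows of Rpl38 (0.63), Rpl39 (2.13), Rpl22 (1.97) and Rpl30 (1.73) turned positive, as did Rpl7l1 (2.25) and Rpl22l1 (2.85). Rpl7l1 also turned with total (0.0185), nuclear (0.0832) and mitochondrial genome counts (0.37), Rpl22l1 with the same 3 (0.64, 0.67 and 1.10) and Rpl22 with mitochondrial genome counts (0.0523), and the cause was not tested. In the pairing by sign flips over animals, the difference of -0.0967 in the large to small subunit ratio had p = 0.0625 and the rise of the Rpl22l1 to Rpl22 log2 ratio by 0.817 had p = 0.0625 (thinned 0.858, exact permutation p = 0.169). The number of rows with a count differed by 12.7 (mitochondria minus muscle) after thinning, by 1.17 among symbols on 1 row, and by -1.93 to 0.667 with 1 library left out. The other library values kept their direction and their side of 0.05 under the alternatives run. Depth limits the mitochondria side, where a row of the 69 had 0 to 68 counts per library.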
